A study of Mus musculus with 10 samples.

Results

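The sites described here are 278 of the 1626 sites in a table of RNA cleavage efficiencies from mouse cells, or 17.1% of the table. They were chosen by class and sequence alone. Their class in the deposited table is CellRep_high (260 sites) or highest (18 sites), and the 11-base sequence around the cut has an adenine at base 4, which lies 2 bases upstream of the adenine of the cut ACA at base 6. Each of these sites reads AGACA from base 4 on. All other sites of these classes, 608 in number, have a guanine at base 4 and read GGACA, and they serve as the comparison. No source used here says how the classes were made, so a difference between classes is not independent evidence about the sites in them.

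The cells were mouse embryonic stem cells (ESC) and embryoid bodies (EB), the aggregates that such cells form when they leave the pluripotent state. Wild-type (WT) ESC gave 3 libraries of polyA RNA and ESC of the genotype Metll3-/- (KO, as the label spells it) gave 3, while EB gave 2 WT and 2 KO libraries. ESC were expanded with LIF and serum on irradiated fibroblast feeders, then moved to gelatin in serum-free medium with LIF and the inhibitors CHIR99021 and PD0325901, and EB were kept in suspension for 9 days in serum medium lacking LIF and both inhibitors. Whether each genotype is 1 clone or line is not given. The table has 1 cleavage efficiency (CE) per site for each of these 4 groups, a fraction between 0 (not cut) and 1 (always cut), with the word Input in each column name, whose meaning is not given. No value per library was at hand, so the values carry no replicate spread, no test between groups could be made, and the read depth behind each value is unknown. Differences are therefore given site by site, a difference of 0.10 is the size that was counted, and intervals on medians are 95% order-statistic intervals that cover the spread over sites, not over cultures. The table holds no expression values, so neither the loss of Mettl3 RNA nor markers of stem cells, feeder cells or differentiated lineages could be checked, and a difference within all cells of a group cannot be told apart from a change in its mixture of cells.

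Mettl3 is the catalytic subunit of the nuclear methyltransferase that places N6-methyladenosine (m6A) in messenger RNA. It marks adenines that have a purine before them and a cytosine after them, and a guanine 2 bases upstream is the more usual form of that motif, with adenine as an accepted alternative. In embryonic stem cells the mark shortens the life of many transcripts, among them those of pluripotency factors, and it is dense in long internal exons, around stop codons and in 3′UTRs while being sparse near exon junctions. Assays built on MazF, a bacterial RNase that cuts before an ACA whose first adenine is unmethylated, read a higher CE as less methylation. No label names the enzyme used on these samples.

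The sequences that carry the results fall into 3 sets. Capitals mark the shared AGACA, or GGACA in the comparison sites, and the third capital of each is the cut-site adenine at base 6. The first set shows the 6 sites with a gene whose CE was higher in ESC KO than in WT by the largest amounts, and the Tet1 and Zfp281 sites of the pluripotency list, as 30 transcript bases, because their flanking letters can be read against the base-by-base results.
BC048403: tgggcagagctaaAGACAgaacctccctaa
Sel1l: tactaaaatactcAGACAatggaggatggg
Brd1: ggtgccttcaaaaAGACAgacgatgaccgc
Abl1: gagctttaaagagAGACAagcagagcctga
Rpp14: tccaagtttggaaAGACAattgttcacgga
Mlec: gtctaatctcaaaAGACAgaccaacaagaa
Tet1: atgaattctggtcAGACAgtgaggagatct
Zfp281: ttgatcctcagaaAGACAtagagcctagaa

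The second set shows sites with almost no cutting in either genotype, which share a guanine directly after the ACA.
Abcc1: tgaagaagctggaAGACAgatgcaccccac
Clstn3: gcctgccctggggAGACAggcactcaggaa
Ilf2: ctgtggcatagggAGACAgcaggaagggaa
Rexo1: cactggccccttcAGACAggagtcagggca

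The third set sets an AGACA site beside a GGACA site of the same gene, as the 11 bases of the deposited table.
Lima1 AGACA site: tgtAGACAcca
Lima1 GGACA site: gacGGACAttg
Ilf2 AGACA site: gggAGACAgca
Ilf2 GGACA site: catGGACAgaa
Kifc1 AGACA site: gacAGACAggc
Kifc1 GGACA site: gctGGACAtac

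The AGACA sites lie on 20 chromosomes, and 238 of them could be assigned to 233 genes. By the matched transcripts, 119 lie in coding sequence, 106 in a 3′UTR, 5 in a 5′UTR, 7 in transcripts without a coding sequence, and for 1 the transcripts differ. The last exon holds 171 of them. Positions below are in mm9, as deposited, and give the cut-site adenine. The BC048403 site is at chr10:121188282 on the plus strand in the 3′UTR, and the Brd1 site is at chr15:88560271 on the minus strand in a transcript without a coding sequence. Other 3′UTR sites printed above are those of Sel1l at chr12:93047265 (minus), Abl1 at chr2:31657535 (plus), Rpp14 at chr14:8922802 (plus), Abcc1 at chr16:14473860 (plus), Clstn3 at chr6:124381568 (minus) and Ilf2 at chr3:90291631 (plus). In coding sequence are the sites of Mlec at chr5:115598062 (minus), Tet1 at chr10:62275680 (minus), Zfp281 at chr1:138524312 (plus), Rexo1 at chr10:80013441 (minus), Lima1 at chr15:99610873 (minus) and Kifc1 at chr17:34020346 (minus).

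AGACA sites of the high and highest classes were cut at intermediate efficiency in WT cells and at high efficiency in KO cells of both stages. The median CE was 0.605 in ESC WT (quartiles 0.286 and 0.775, 212 sites) and 0.842 in ESC KO (0.647 and 0.929, 197 sites). It was 0.672 in EB WT (0.419 and 0.840, 219 sites) and 0.852 in EB KO (0.673 and 0.931, 160 sites). The 95% intervals of these medians ran from 0.525 to 0.658 in ESC WT and from 0.815 to 0.877 in ESC KO, and from 0.595 to 0.714 in EB WT and from 0.814 to 0.879 in EB KO. They did not overlap between genotypes of a stage, but they cover the spread over sites only, and the columns hold partly different sites. The intervals over all sites of the table did not overlap either (0.398 to 0.476 in ESC WT and 0.795 to 0.825 in ESC KO). A CE of at least 0.80 was found for 22.6% of sites in ESC WT against 59.4% in ESC KO, and for 31.5% in EB WT against 63.1% in EB KO. Over all sites of the table these shares were 20.5% and 52.3% in ESC and 27.4% and 53.5% in EB, so the rise is not particular to AGACA sites. The low end moved less: 17% of sites were under 0.20 in ESC WT and 12.2% in ESC KO, with 14.2% in EB WT and 13.1% in EB KO. Over all sites the shares under 0.20 were 29.6% and 14.7% in ESC WT and KO, and 23.9% and 15.1% in EB WT and KO. Not every site has every value. All 4 values are given for 122 sites, 3 for 43, 2 for 58 and 1 for 55, and EB KO is the column that most often lacks a value (118 sites).

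**Figure D1:**
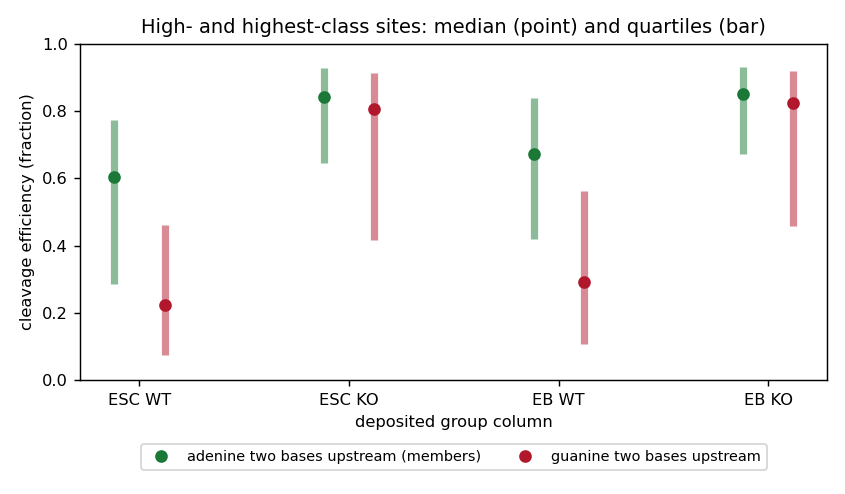
Median cleavage efficiency (points, fraction from 0 to 1 on the vertical axis) and quartiles over sites (bars) in the 4 deposited group columns, for AGACA sites (green) and GGACA sites (red) of the high and highest classes. The KO medians lie between 0.805 and 0.852 for both kinds of site, while in WT the AGACA medians of 0.605 and 0.672 lie above the GGACA medians of 0.223 and 0.293.

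Set beside the GGACA sites of the same classes, the AGACA sites stood apart in the WT columns and much less in the KO columns. GGACA sites had a median of 0.223 in ESC WT (468 sites) and 0.293 in EB WT (473 sites), and of 0.805 in ESC KO (466 sites) and 0.823 in EB KO (333 sites). At a CE of at least 0.80, GGACA sites made up 3.63% in ESC WT and 51.3% in ESC KO. The AGACA sites of the intermediate class, whose WT median in ESC was 0.705, and of the low class, at 0.810, lay above those of the high classes in WT.

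In ESC, CE at AGACA sites was mostly higher without Mettl3. Both values are given for 169 sites, and their median KO minus WT difference was 0.156 (quartiles 0.0310 and 0.311, 95% interval 0.106 to 0.207). KO was the higher value at 139 sites and the lower at 27, with 3 ties. By at least 0.10, CE was higher in KO at 100 sites (59.2%), where the share over all sites of the table is 55.4%, and lower at 6 (3.55%), where it is 2.58%. Both shares are near those of the table, so the counts by themselves do not set the AGACA sites apart. GGACA sites of the same classes had a median difference of 0.374 (interval 0.306 to 0.411, 380 sites), with 304 (80.0%) higher by at least 0.10 and 1 lower. Among AGACA sites the median was 0.151 in the high class (162 sites) and 0.397 in the highest class (7 sites). The comparison with GGACA sites was not repeated within a class in either stage. Relative to the KO value, among sites whose KO CE was at least 0.20, the WT shortfall had a median of 0.231 at 147 AGACA sites and of 0.615 at 322 GGACA sites; this measure was chosen after values were seen.

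The largest difference in ESC was in the 3′UTR of BC048403, where CE was 0 in ESC WT and 0.957 in ESC KO, and 0.0667 in EB WT and 0.952 in EB KO. Its groups stood at opposite ends of the scale in both stages. Sel1l, an adaptor of the ubiquitin ligase that clears misfolded proteins from the endoplasmic reticulum, had 0.105 in ESC WT, 1 in ESC KO and 0.146 in EB WT, with no EB KO value. Brd1, a scaffold of histone acetyltransferase complexes, had 0.143 and 0.908 in ESC WT and KO and 0.175 and 0.899 in EB WT and KO. At these 3 sites the WT values of both stages were low and alike.

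Abl1, a tyrosine kinase, had 0.235 and 0.929 in ESC WT and KO, and 0.613 and 0.957 in EB WT and KO. Its KO values were close while its WT values were not. Rpp14, a subunit of RNase P, had 0.262 and 0.875 in ESC and 0.311 and 0.900 in EB. Mlec, an endoplasmic reticulum protein that binds glucosylated glycans, had 0.245 and 0.857 in ESC and 0.435 and 0.773 in EB. The 8 largest among sites with a gene ended with Il6st, the gp130 receptor chain through which LIF signals (0.295 and 0.892 in ESC, no EB values), and Eml4, a microtubule-binding protein (0.206 and 0.781 in ESC, 0.429 and 0.915 in EB).

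Downward differences were few and smaller. Among sites matched to a gene, 3 were lower in ESC KO by at least 0.10. Nfatc2ip had 0.803 in ESC WT and 0.595 in ESC KO at chr7:133528463 (minus strand, 3′UTR). Zbed6, a transcription factor gene derived from a transposon, had 0.286 and 0.119 in ESC, but 0.156 in EB WT and 0.190 in EB KO, so its direction was not the same in both stages. Smg8, part of the kinase complex of nonsense-mediated decay, had 0.833 and 0.719. Next after them was Slc35a4, a nucleotide sugar transporter family member, with 0.486 and 0.391, just short of the counted size.

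**Figure D2:**
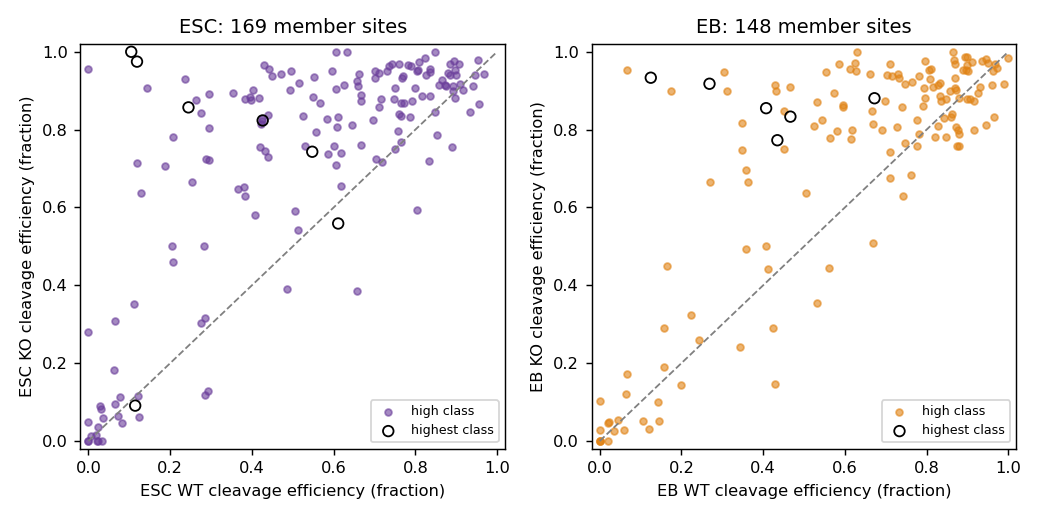
Cleavage efficiency in WT (horizontal axis) and KO (vertical axis) for each AGACA site with both values, in ESC (169 sites, left) and EB (148 sites, right), as fractions, with the highest class as open circles and the dashed line at equal values. In ESC 139 sites lie above the line and 27 below it, and in EB 103 lie above and 42 below.

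In EB the same comparison gave a smaller median. Both EB values are given for 148 sites, with a median KO minus WT difference of 0.0680 (quartiles -0.0170 and 0.215, interval 0.0370 to 0.105). KO was higher at 103 sites and lower at 42, with 3 ties. At least 0.10 higher were 64 sites (43.2%), beside 41.9% over all sites, and at least 0.10 lower were 12 (8.11%), beside 5.96%. These shares too are near those of the table. GGACA sites had a median of 0.284 (interval 0.230 to 0.339, 305 sites), with 221 (72.5%) higher by at least 0.10 and 5 lower. The relative shortfall of WT had a median of 0.103 at 128 AGACA sites and 0.509 at 257 GGACA sites.

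Among sites with a gene, BC048403 (difference 0.886) and Brd1 (0.724) had the largest differences in EB. Spred1, an inhibitor of Ras to MAP kinase signalling, had 0.269 in EB WT and 0.918 in EB KO in its coding sequence at chr2:117003210 (plus), with no ESC values. Yeats4, a reader of acylated histones in chromatin remodelling complexes, had 0.304 and 0.949 in EB and 0.403 and 0.902 in ESC. Rpp14 followed with a difference of 0.589, Eml4 with 0.487, Rrs1, a ribosome assembly factor, with 0.469, and Hnrnph2, an hnRNP that binds guanine-rich RNA, with 0.442. Apart from Spred1, each of these genes has ESC values, and KO exceeded WT there too, as at Rrs1 (0.355 and 0.893 in ESC, 0.431 and 0.900 in EB).

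Among sites with a gene, the largest downward differences in EB were at Cyb5b, a cytochrome b5 of the outer mitochondrial membrane (0.670 in EB WT and 0.510 in EB KO), Sec16a, an organizer of endoplasmic reticulum exit sites (0.424 and 0.290), Zdhhc5, a palmitoyltransferase (0.945 and 0.812), and Lrp5, a Wnt co-receptor (0.964 and 0.833). In ESC, Cyb5b (0.719 in WT and 0.718 in KO) and Lrp5 (0.917 and 0.902) differed by less than 0.10, and Zdhhc5 was higher in KO (0.907 and 0.969). None of these downward EB differences was thus repeated at the counted size in ESC, and Sec16a has no ESC value.

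Between stages, WT cells of EB had somewhat higher CE at AGACA sites than WT ESC, and KO cells did not. The median EB minus ESC difference was 0.0587 in WT (interval 0.0385 to 0.0722, 172 sites), with 124 sites higher in EB and 47 lower. By at least 0.10, 52 sites were higher (30.2%, beside 26.4% of all sites) and 14 lower (8.14%, beside 5.51%). In KO the median was 0 (interval -0.0111 to 0.0108, 138 sites), with 8 sites higher by at least 0.10 (5.80%, beside 7.1%) and 13 lower (9.42%, beside 11.1%). For GGACA sites the medians were 0.0414 in WT and 0 in KO. The KO columns give a measure of how far 2 columns drift apart where Mettl3 is missing in both: 95% of all sites differed between EB KO and ESC KO by no more than 0.166. Beyond that size, 79 AGACA sites were higher in KO in ESC (46.7%, beside 43.4% of all sites) and 3 lower (1.78%, beside 1.05%). In EB 46 were higher (31.1%, beside 34%) and 2 lower (1.35%, beside 1.4%), so these shares too were near those of the table.

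Sites with a higher WT value in EB than in ESC were led by Abl1 (difference 0.378), Dnajc11, a mitochondrial J-domain protein (0.295 in ESC WT and 0.660 in EB WT), Pcmtd1, of the protein isoaspartate methyltransferase family (0.383 and 0.711), and Me2, the mitochondrial malic enzyme (0.586 and 0.870). At Pcmtd1 and Me2 the EB KO values were 0.744 and 0.907, close to their EB WT values. Sites lower in EB WT were led by Banp, a nuclear protein that binds CGCG DNA elements (0.879 and 0.594), March2, a membrane-bound E3 ubiquitin ligase (0.735 and 0.50), 4931406P16Rik (0.757 and 0.533) and Tfdp2, a dimerization partner of E2F factors (0.773 and 0.555).

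Over the 122 sites with all 4 values, the signed KO minus WT difference was lower in EB than in ESC at 90 sites and higher at 32. The median change was -0.0608 (interval -0.1005 to -0.0360). It was lower by at least 0.10 at 50 sites (41.0%, beside 32% of all sites) and higher at 10 (8.20%, beside 5.53%). A lower signed value is not always a smaller one, as at Cyb5b (-0.0015 in ESC and -0.160 in EB). The median for GGACA sites was -0.0461 over 272 sites, of which 83 (30.5%) were lower by at least 0.10. At the 69 AGACA sites with an ESC difference of at least 0.10, the median CE was 0.557 in ESC WT, 0.628 in EB WT, 0.879 in ESC KO and 0.886 in EB KO. Those sites were picked by their ESC difference, so their lower EB difference is a description only. Of the 69, 48 also reached 0.10 in EB (69.6%), and these 48 are 92.3% of the 52 sites that reached it in EB. The same overlap was not computed over all sites or GGACA sites, so these shares are not read as a trait of AGACA sites. Across the 122 sites the ESC and EB differences correlated with Pearson's r at 0.840 and Spearman's rho at 0.770; the points share transcripts and processing, and no p is given.

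Among sites with a gene, the signed KO minus WT difference was most above its ESC value in EB at Tfdp2, whose difference was 0.0949 in ESC and 0.393 in EB, at Stard7, a lipid transfer protein (0.0844 and 0.304), at Zbed6 (-0.167 and 0.0336) and at Yeats4 (0.50 and 0.645). It was most below its ESC value in EB at Abl1 (0.694 and 0.344), Mlec (0.612 and 0.338), Wapl, the factor that releases cohesin from chromatin (0.399 and 0.145), and Pepd, the dipeptidase prolidase (0.395 and 0.144). At Wapl the WT value went from 0.440 in ESC to 0.669 in EB while the KO values were 0.839 and 0.814, so most of the gap lay in WT. Tfdp2 had the reverse order of WT values (0.773 and 0.555), with KO at 0.868 and 0.948.

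**Figure D3:**
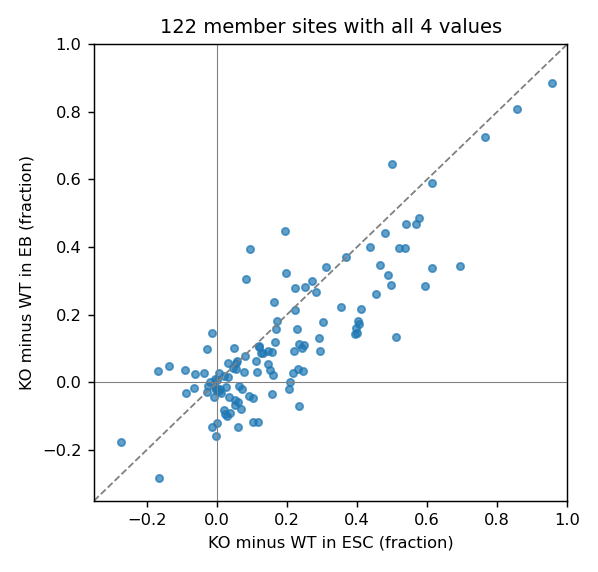
KO minus WT difference in ESC (horizontal axis) and in EB (vertical axis), as fractions, for the 122 AGACA sites with all 4 values, with a line at equal differences. Of these, 90 points lie on the side of a lower signed difference in EB and 32 on the other side.

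Flanking bases were compared at the 6 positions of the 11 bases that vary, which makes 24 groups of sites and no test. The 3 largest group medians were those of thymine at base 10, guanine at base 11 and adenine at base 2, and the 4 bases of a position differed most at bases 10 and 2. With adenine at base 2 the median ESC difference was 0.239 (interval 0.164 to 0.367) and 46 of 62 sites reached 0.10, while with guanine there it was 0.0882 (0.0310 to 0.185) and 24 of 50 did. Cytosine and thymine at base 2 gave 0.155 and 0.0811. With thymine at base 10 the median was 0.250 (0.222 to 0.353) and 47 of 60 sites reached 0.10. The medians were 0.146 for adenine, 0.0831 for cytosine and 0.0563 (interval -0.0015 to 0.185) for guanine at base 10.

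EB gave the same first place at both positions, with a median of 0.176 for adenine at base 2 (36 of 56 sites at 0.10 or more) against 0.0186 for guanine (7 of 40), and of 0.136 for thymine at base 10 (31 of 51) against 0.0290 for guanine (11 of 35). The difference at base 10 lay in the WT column. In ESC WT the median CE was 0.459 with thymine, 0.622 with adenine, 0.697 with cytosine and 0.725 with guanine at base 10, while in ESC KO the 4 medians ran from 0.822 to 0.868. Bases 1, 3 and 11 showed a smaller gap between their highest and lowest medians, with ESC medians of 0.119 to 0.182 at base 1, of 0.093 to 0.228 at base 3 and, at base 11, 0.241 for guanine against 0.103 to 0.147 for the others.

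When the 2 positions were combined, a choice made after these values were seen, the 115 sites with neither adenine at base 2 nor thymine at base 10 had a median ESC difference of 0.0438 (interval 0.0205 to 0.0811), and 24 of the 70 with both values reached 0.10. Sites with 1 of the 2 bases had 0.235 (0.196 to 0.297; 59 of 76), and sites with both had 0.281 (0.158 to 0.515; 17 of 23). In EB the medians were 0.0012, 0.132 and 0.260 in that order. GGACA sites had ESC medians of 0.219, 0.448 and 0.472 in the same order. Il6st (gctAGACAttc) and Yeats4 (gaaAGACAttt) have the thymine at base 10, while Brd1 and Mlec (both aaaAGACAgac) have the adenine at base 2 without it. The adenine is found at base 2 in 36.0% of AGACA sites and 33.3% of all sites of the table, and the thymine at base 10 in 37.1% and 28.8%. GGACA sites of the same classes had shares near those of AGACA sites, with 37.0% for the adenine and 35.4% for the thymine. In the intermediate class, 20.0% of AGACA sites have that thymine.

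Base 9, directly after the ACA, went with how well a site was cut in both genotypes. With guanine there the median CE in ESC KO was 0.714 (interval 0.50 to 0.760, 85 sites), against 0.914 with adenine (0.873 to 0.940, 35 sites), 0.851 with cytosine and 0.909 with thymine. In EB KO the median with guanine was 0.767 and the others were between 0.848 and 0.939. In ESC WT guanine had 0.366, thymine 0.633, cytosine 0.660 and adenine 0.803. GGACA sites had the same lowest base, with an ESC KO median of 0.387 for guanine at base 9 and of 0.821 to 0.906 for the others. The larger difference with thymine at base 10 was found on either side of this split: 0.281 against 0.120 where base 9 is guanine and 0.243 against 0.070 where it is not.

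**Figure D4:**
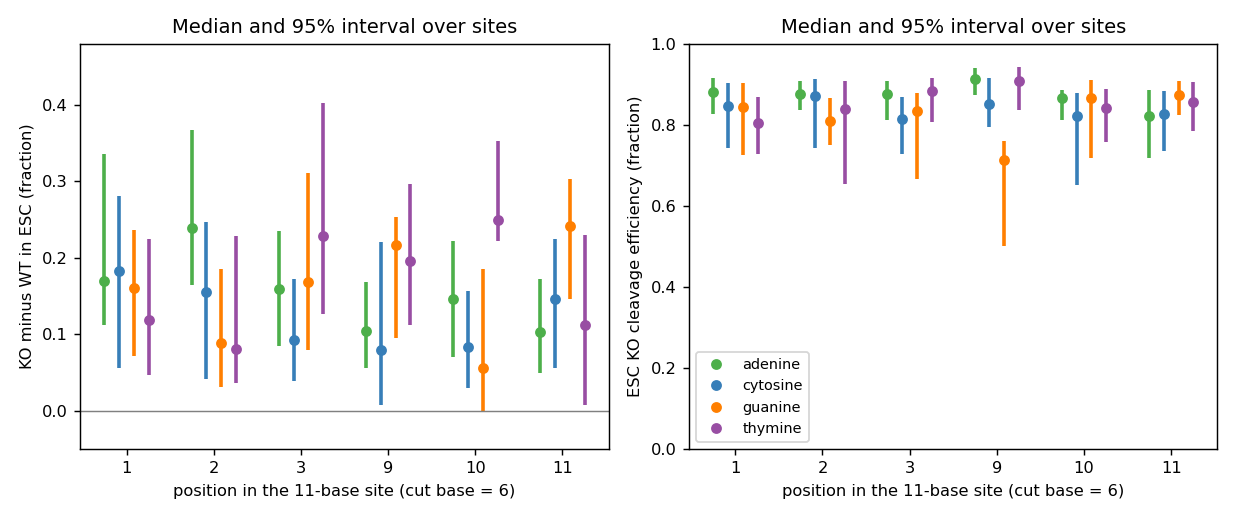
Median over AGACA sites (points) with 95% intervals over sites (lines) for each base at each varying position of the 11-base site, for the KO minus WT difference in ESC and for the ESC KO cleavage efficiency, both as fractions. Thymine at base 10 (0.250), guanine at base 11 (0.241) and adenine at base 2 (0.239) have the largest differences, and guanine at base 9 has the lowest KO efficiency (0.714).

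Some AGACA sites were hardly cut even without Mettl3. Of 138 sites with both KO values, 21 (15.2%) were under 0.20 in ESC KO and EB KO, and 18 of the 21 (85.7%) have guanine at base 9, against 45 of the other 117 (38.5%). For GGACA sites the share under 0.20 was 14%, and 36 of those 44 have guanine at base 9. At Abcc1, a multidrug exporter, CE was 0 in ESC WT, ESC KO and EB KO and 0.0204 in EB WT. Clstn3, a synaptic adhesion protein of the cadherin family, had 0.02 in ESC WT and 0 in the other 3 columns. Ilf2, which forms the double-stranded RNA-binding NF45 and NF90 complex, had 0.00508 and 0.0118 in ESC and 0.0201 and 0.0467 in EB. Asph, Rexo1 and Peli1 complete the 6 lowest among sites with a gene, with no value above 0.0811 in any column. The median WT values of the 21 were 0.0333 in ESC and 0.0519 in EB, and the highest WT value among them was 0.429. Trim24 (ESC difference 0.119) and Zbed6 (-0.167) belong to the 21, so differences in either direction occurred among them.

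By place in the transcript, sites in 3′UTRs had a median ESC difference of 0.173 (45 of 69 at 0.10 or more) and sites in coding sequence 0.149 (40 of 68), and in EB the medians were 0.0918 and 0.0429. Distance to the nearest exon junction could be set for 235 sites, with a median of 284 nt, and 27 (11.5%) lay within 100 nt. The share is 29.6% among all sites and 11% among GGACA sites of the same classes. Within 100 nt the median ESC difference was 0.0700 (interval 0.0270 to 0.164; 7 of 17 sites) and farther away 0.167 (0.121 to 0.240; 81 of 127). The intervals overlap. In coding sequence alone the medians were 0.0746 near a junction and 0.166 farther away, and within or beyond 200 nt of the end of the coding sequence they were 0.163 and 0.161. Mlec, at 92 nt from a junction, and Arid1a, at 6 nt, are sites near a junction with a KO value above WT in both stages.

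A repeat of the motif and the predicted folding of the RNA were examined as well. A further ACA within the 11 bases, on the same strand and overlapping or beside the cut ACA, is present in 28 AGACA sites (10.1%) and in 6.15% of all sites. Sites with a further ACA starting at base 2 had a median ESC difference of 0.158 (11 sites) against 0.154 without any. Such a start requires adenine at base 2, so the groups also differ in that base, and a part played by the repeat itself was not tested. The predicted probability that the ACA is unpaired, from a 101-nt window, had a rank correlation with CE of 0.194 in ESC KO (166 sites) and 0.245 in EB KO (131 sites), given as a description. GGACA sites of the same classes had lower rank correlations, 0.0905 in ESC KO (399 sites) and 0.0893 in EB KO (287 sites). That probability was split into 3 ranges of equal width, which need not hold equal numbers of sites. From the lowest range to the highest, the median ESC KO efficiency was 0.804, 0.836 and 0.876. The 21 AGACA sites hardly cut in KO had a median probability of 0.343 (16 with a window), and the others 0.629 (97). For GGACA sites the same medians were closer, 0.521 (35) and 0.633 (235).

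The 278 sites hold 255 distinct 11-base sequences, and 21 of these are shared by 44 sites in different places, so equal letters can be compared in different transcripts. Over the 11 shared sequences with at least 2 ESC differences, the range within a sequence had a median of 0.189 and ran from 0.00755 to 0.488. The sequence gagAGACAgtg occurs in Mcm6, a subunit of the replicative helicase, where CE was 0.0652 in ESC WT and 0.0961 in ESC KO, and in Cd2bp2, a spliceosome component, where it was 0.188 and 0.707. The same letters thus went with almost no cutting in one transcript and with a difference of 0.519 in the other. Brd1 and Mlec share aaaAGACAgac and had ESC differences of 0.765 and 0.612. Abl1 and Chd4 share gagAGACAagc and had 0.694 and 0.236. Arid1a and Glrx2, a mitochondrial glutaredoxin, share gaaAGACAttg and had 0.164 and 0.353.

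In 29 genes an AGACA site and a GGACA site of these classes occur together, which sets the 2 motifs side by side within a gene. Whether both sites lie on the same transcript was not checked. For 14 genes both ESC differences are given, with the mean taken where a gene has several sites of 1 kind. The GGACA value was the larger KO minus WT difference in 12 of them, by at least 0.10 in each of the 12. It was the smaller in Slc38a10 (0.377 against 0.403) and Slc6a8 (0.133 against 0.229). Among the 12, the AGACA sites of Ilf2, Apc and Trim24 had ESC KO values of only 0.0118, 0.0909 and 0.182, which bounds their differences. The median was 0.144 for AGACA sites and 0.491 for GGACA sites, and the median gap within a gene was 0.283 (interval 0.123 to 0.586). In EB 9 genes could be compared, and the GGACA value was the larger in 9 of 9, by at least 0.10 in 7, with medians of 0.101 and 0.433. In both stages Arid1a counts by the mean of its 2 GGACA sites. Of these, 1 (0.125 in ESC and 0.0823 in EB) lay below the AGACA site of Arid1a (0.164 and 0.238).

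The widest gap was in Lima1, an actin-binding LIM protein, where the AGACA site had 0.697 in ESC WT and 0.824 in ESC KO and the GGACA site at chr15:99609771 (minus, 3′UTR) had 0.0111 and 0.881. Both sites were cut well in KO, and they differed in WT. In Ilf2 the AGACA site was not cut above 0.0467 in any column, while the GGACA site at chr3:90292140 had an ESC difference of 0.573. Kifc1, a minus-end directed kinesin, had ESC differences of 0.244 at the AGACA site and 0.578 at the GGACA site. The other genes with wide gaps were Aff1, a scaffold of the super elongation complex (0.0831 and 0.680 in ESC), Nol9, a polynucleotide kinase of rRNA processing (0.161 and 0.748), Apc, the scaffold of the β-catenin destruction complex (-0.0234 and 0.454), Trim24, a bromodomain reader and E3 ligase (0.119 and 0.404), and Sec16a, where only EB allowed the comparison (-0.134 and 0.433).

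**Figure D5:**
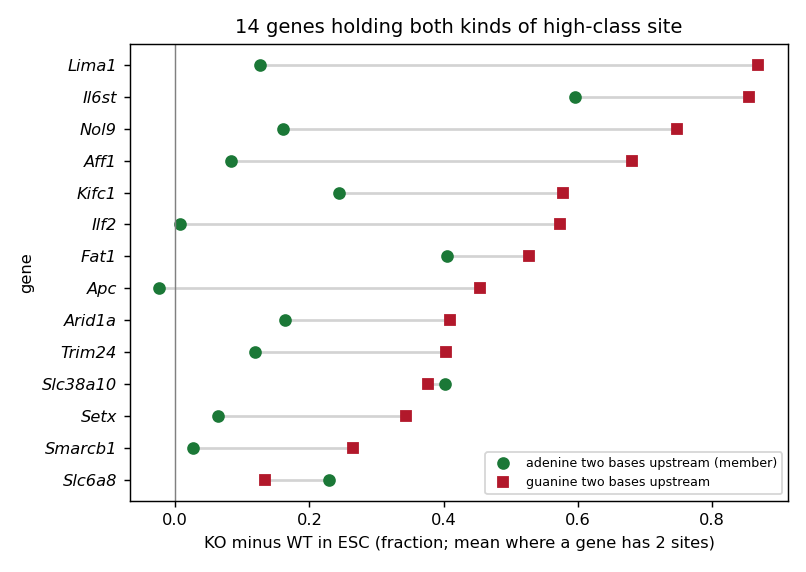
KO minus WT difference in ESC (horizontal axis, fraction, mean where a gene has several sites of 1 kind) at the AGACA site (green circle) and the GGACA site (red square) of the 14 genes (vertical axis) with both. The red square lies to the right of the green circle in 12 genes and to its left in Slc38a10 and Slc6a8.

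Among gene lists by function, the list of 36 pluripotency and LIF signalling genes has AGACA sites in 3 genes, and CE was higher in KO by at least 0.10 at 3 of 3 sites in ESC (55.4% of all sites) and at 2 of 2 in EB (41.9% of all sites). Beside Il6st these were Tet1, an enzyme that oxidizes 5-methylcytosine (0.288 and 0.723 in ESC, 0.348 and 0.747 in EB), and Zfp281, a zinc finger factor of pluripotent cells (0.382 and 0.879 in ESC, 0.524 and 0.810 in EB). The medians of the differences were 0.496 in ESC and 0.343 in EB, where the medians over all sites of the table were 0.130 and 0.0638, and they stayed above 0 (0.123 and 0.0765) when the median of each column over the table's complete sites was first subtracted. With so few sites, these are descriptions of single sites.

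The list of 64 chromatin and transcription regulators has AGACA sites in 6 genes, and 4 of 4 were higher in KO by at least 0.10 in each stage, beside 55.4% of all sites in ESC and 41.9% in EB. The medians of the differences were 0.323 in ESC and 0.227 in EB, where the medians over all sites were 0.130 and 0.0638. They turned to -0.0501 and -0.0394 when column medians were subtracted, which takes off more than those medians over all sites. Beside Brd1 these were Brd3, a BET bromodomain reader (0.492 and 0.903 in ESC, 0.581 and 0.797 in EB), Arid1a, a subunit of the BAF remodeller (0.768 and 0.932, 0.702 and 0.940), and Chd4, the ATPase of the NuRD complex (0.557 and 0.793, 0.793 and 0.906). Setd1a, a histone H3 lysine methyltransferase, has an EB WT value only (0.686), and Med1, a Mediator subunit, an ESC KO value only (0.361). The list leaves out other chromatin genes, so these values describe single sites and not the group. Outside it, Smarcb1 (differences of 0.0270 in ESC and -0.0132 in EB) and Rsf1 (0.0581 and 0.0635) stayed under 0.10. Sin3a had 0.207 in ESC and -0.0186 in EB, while Yeats4 had 0.50 and 0.645.

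Of 28 genes of the m6A machinery, 3 have an AGACA site. At Prrc2a, reported as an m6A-binding protein, CE was 0.380 in ESC WT and 0.652 in ESC KO, and 0.452 and 0.750 in EB. Virma, the scaffold of the writer complex, has 0.50 in ESC KO and 0.595 in EB WT, and Rbmx, an hnRNP of the X chromosome, has only an EB WT value, listed at 0. Of 50 splicing and hnRNP genes, Hnrnph2 had 0.398 and 0.877 in ESC and 0.467 and 0.909 in EB. Srsf11, a serine- and arginine-rich splicing regulator, had 0.759 and 0.968 in ESC but 0.967 and 0.969 in EB, so that its EB WT value was as high as KO. No AGACA site lies in the 34 genes of the germ layer list.

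Within the highest class, CE was higher in ESC KO by at least 0.10 at 5 of 7 sites with both values (median difference 0.397), beside 55.4% of all sites, and higher in EB KO at 6 of 6 (median 0.407), beside 41.9%, and 3 of these 18 sites have all 4 values. Sel1l and Mlec, described above, belong to it. Cdk19, a Mediator kinase, had 0.426 and 0.824 in ESC, Spag9, a JNK scaffold, had 0.467 and 0.833 in EB, and Rhob, a small GTPase, had 0.672 and 0.881 in EB. At Zbtb7a, a transcriptional repressor (0.611 in WT and 0.559 in KO), and at Apc (0.114 and 0.0909), ESC KO lay slightly below WT. Other sites of this class have values in 1 genotype only: Cdc42ep3 (1), Trak2 (0.765), Ptk2, the focal adhesion kinase (0.567), and Rfxap (0.273) in ESC KO, and Cdc42bpb (0.809), Larp4b (0.550) and Lgr4 (0.477) in EB WT.

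A few genes hold several AGACA sites, and these were not alike. In Mbtps2, the site-2 protease that releases membrane-bound transcription factors, 1 of 3 sites was cut at 0.879 and 0.788 in EB WT and KO, while the other two lay between 0.027 and 0.20 in every column. Nfatc2ip had its site at 0.803 in ESC WT beside another at 0.123. In Fat1, a giant cadherin, CE was 0.514 and 0.919 in ESC WT and KO at one site, and 0.788 in ESC WT, with no other value, at the other. Atad5, which unloads PCNA from DNA, was the exception, with both sites slightly higher in ESC KO (differences of 0.0307 and 0.103) and lower in EB KO (-0.10 and -0.117).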

How the data were processed

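The authors deposited, per the file headers, a cleavage efficiency for each site and group; the values show it to be a fraction between 0 and 1. STAR 2.5.3a, bedtools 2.26.0 and mm9 come from the submitters' processing notes, which state no role for them. Read counting, depth and how libraries were combined are given in no source used here. There were 0 value columns outside the 4 groups, and without values per library the planned limma fits could not be made.

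Differences between columns were taken with no filter or pseudocount (Python 3.11.15, pandas 2.3.3, numpy 2.4.6), and the scripts were tested on simulated data. Sites were matched to GENCODE M21 transcripts by their 11 bases, strand, chromosome, transcript position (within 100 nt) and neighbouring sites. Of 1626 sites, 1475 matched on their own strand and 1434 kept a gene, with 614 at the deposited transcript position. A separate search of the opposite strand, from which no gene was taken, matched 54 sites. The printed 30-base sequences come from those transcripts and no coordinate was converted. Pairing was predicted with ViennaRNA 2.7.2.

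The AGACA sites, gene lists and sizes were chosen with earlier results of these data known. Named genes are the 8 largest upward and 4 largest downward KO minus WT differences per stage, the 4 largest each way between WT stages and in the change of the KO effect, the highest class, the 6 lowest in KO, genes with several sites, list members, and the 8 widest gaps within a gene. Shared sequences, flank examples and Slc38a10 and Slc6a8 were named after their values were seen. Smarcb1, Rsf1 and Sin3a were also named outside these rules.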

Additional observations from a re-analysis of the deposited data

How the results depend on the processing

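The values rest on 4 group columns of unknown depth, so a site cut in few reads carries the same weight as a deeply covered one, and a shift shared by a whole column cannot be told apart from an effect of genotype. No paired analysis was possible because the columns carry no replicate numbers, and leaving out each library and the replicate block were not run for the same reason. Subtracting column medians taken over complete sites shifts ESC differences by -0.373, EB differences by -0.266, WT stage differences by -0.0963 and the change of the KO effect by 0.107. The ESC and EB shifts are larger in size than the median KO minus WT differences over all sites (0.130 and 0.0638). They take off more than the median effect of the knockout, and the median over all sites would turn negative too. For AGACA sites the subtraction turned the medians to -0.217 in ESC, -0.198 in EB, -0.038 between stages in WT and 0.046 for the change of the KO effect. Sites at 0.10 or more then numbered 22 higher and 118 lower in ESC, 18 and 102 in EB, 19 and 44 between stages in WT, and 36 and 15 for the change of the KO effect. Of 99 named differences, 38 changed sign. Of these, 18 had been under 0.10 in size, and the 20 of at least 0.10 were, in ESC, Lima1 (-0.247), Kifc1 (-0.130), Prrc2a (-0.101), Me2 (-0.223), Srsf11 (-0.165), Arid1a (-0.209), Nol9 (-0.212), Trim24 (-0.254), Chd4 (-0.138), Pcmtd1 (-0.127) and Atad5 (-0.270), and in EB Rhob (-0.058), Wapl (-0.122), Kifc1 (-0.166), Brd3 (-0.051), Arid1a (-0.028), Trim24 (-0.161), Chd4 (-0.154), Pepd (-0.123) and Fat1 (-0.095).

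At a size of 0.20, which keeps fewer sites by construction, 2 sites were lower in ESC, 41 higher and 1 lower in EB, 19 higher and 5 lower between stages in WT, 0 higher and 4 lower between stages in KO, and 4 higher and 17 lower for the change of the KO effect. Sites with all 4 values gave 34 higher and 9 lower between stages in WT, sites matched to a gene gave 3 lower in ESC, and taking the mean gave 0.121 in EB. The gap between AGACA and GGACA medians in EB was -0.216 and widened to -0.303 without sites that have guanine at base 9 (an alternative added after seeing the data); the cause was not tested. For the results that answer a comparison, 62 other values stayed within the interval of the median or gap or within 1.5 times the count, among them those for adenine at base 2 and thymine at base 10. Both bases have among the largest of the 24 group medians in these same data. The alternatives reuse the same sites, so their staying within the interval is no independent support. On the logit scale, whose values cannot be set against those intervals, the medians were 1.16 in ESC, 0.746 in EB, 0.385 between stages in WT, 0 in KO and -0.394 for the change of the KO effect, with the same signs.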

Other observations

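Of the 278 AGACA sites, 40 could not be assigned to a gene, and among them were the largest downward KO minus WT differences of both stages. A highest-class site at chr6:83059713 on the plus strand of mm9, taaAGACAgtg, had a CE of 0.119 and 0.975 in WT and KO of ESC, and of 0.125 and 0.933 in EB. The difference of 0.856 in ESC is close to that of the leading sites with a gene. At chr16:38445939 (minus), tggAGACAgtg had 0.119 and 0.714 in ESC and 0.165 and 0.450 in EB, so its KO values differed between stages. Against the general direction, atcAGACAcac at chr3:94304920 (minus) had 0.658 and 0.386 in ESC and 0.532 and 0.355 in EB, and gccAGACAggg at chr9:96233728 (minus) had 0.292 and 0.129 in ESC and 0.429 and 0.147 in EB. These 2 sites were lower in KO by at least 0.10 in both stages, and no other AGACA site with all 4 values was.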
